A study of Homo sapiens with 24 samples.

Results

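The genes described here are 38 genes of the unfolded protein response and of protein folding in the endoplasmic reticulum (ER), measured by RNA-seq in OE33 cells. They were chosen by symbol, and all 38 were found among the 61860 gene identifiers of the count tables. OE33 is a cell line from an adenocarcinoma of the lower esophagus. There were 4 experiments with 3 treated and 3 control libraries each, 24 libraries in all. In the first, OE33 xenografts grew for 3 weeks under the skin of male BALB/c-nu nude mice, which lack T cells. The mice had been bought at 4 weeks of age and acclimatized for 1 week. Before the injection they were fed for 8 weeks on chow rich in fat (high-fat diet, HFD) or ordinary chow (normal diet, ND). They stayed on the same diet while the xenografts grew. In the other experiments, cultured OE33 cells carried a TRIM15 expression plasmid (OE-TRIM15) or the empty vector (EV) for 48 h, an shRNA to YY2 (shYY2) or shControl for 72 h, or an shRNA to FOXRED1 (shFOXRED1) or their own shControl for 72 h. Which of the study's shRNAs to each gene was sequenced is not stated. Nothing says whether the 3 libraries of a group came from separate cultures or, for the xenografts, from separate tumors. The p-values therefore measure the spread between these libraries.

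When unfolded proteins accumulate in the ER, the sensors ATF6, IRE1 (encoded by ERN1) and PERK become active. ATF6 is cut and its freed part enters the nucleus, IRE1 splices the XBP1 mRNA, and PERK slows translation and favors that of ATF4. ATF6 and XBP1 then raise the transcription of chaperones, of disulfide isomerases, of the machinery that returns misfolded proteins to the cytosol for degradation (ER-associated degradation, ERAD) and of the translocon through which new proteins enter the ER. RNA-seq counts per gene do not show the splicing of XBP1 or the cutting of ATF6. The members fall into 4 sensors and transcription factors, 10 HSP70 and HSP90 chaperones and their partners, 6 lectin chaperones and disulfide isomerases, 12 ERAD genes and 6 genes of the translocon, of export and of the ER membrane.

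The known DNA elements of this response were looked up in the promoters of the members. RefSeq windows (GRCh38.p14) of 300 bases, 250 before and 50 after a transcription start, were at hand for 34 of the 38 members, and not for DERL1, DERL3, SEC24D and PDIA3. The ER stress response element (ERSE) was searched on both strands as CCAAT, 9 bases of any kind and CCACG, and ERSE-II as ATTGG, 1 base of any kind and CCACG. ERSE was in the windows of 7 of these 34 members (HSPA5, HSP90B1, CALR, CANX, PDIA6, CRELD2 and XBP1). It was in those of 0.0916% of all 27305 genes with a window. ERSE-II was in the windows of HYOU1, HERPUD1 and SDF2L1 and in those of 0.0696% of all genes with a window. The shorter UPRE, TGACGTGG, was in the windows of 0.927% of all genes with a window. Of the members, SSR3 and HYOU1 hold it, and in HYOU1 it overlaps an ERSE-II. The largest changes below were in HSPA5 with shYY2 and in CANX in HFD xenografts, and both genes hold an ERSE. With OE-TRIM15 and shFOXRED1 the largest were in DNAJB9 and SEL1L, which hold neither ERSE nor ERSE-II in the windows searched. The stretches around the ERSE and ERSE-II matches are shown. Each reads 5′ to 3′ on the strand of the gene, with the element in capitals. In both HYOU1 stretches, the second HSP90B1 stretch, CALR, CRELD2 and SDF2L1 the element lies on the opposite strand and appears as its reverse complement. The CANX match begins 9 bases before the start and is not printed.
HSPA5, ERSE, chr9:125241376-125241424, reverse strand: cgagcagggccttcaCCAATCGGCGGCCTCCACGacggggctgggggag
HSP90B1, ERSE, chr12:103930201-103930249, forward strand: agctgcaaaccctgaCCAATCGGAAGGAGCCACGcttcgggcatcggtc
HSP90B1, ERSE, chr12:103930306-103930354, forward strand: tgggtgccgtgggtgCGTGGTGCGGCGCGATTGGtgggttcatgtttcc
CALR, ERSE, chr19:12938369-12938417, forward strand: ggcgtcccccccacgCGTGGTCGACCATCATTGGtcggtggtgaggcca
PDIA6, ERSE, chr2:10812838-10812886, reverse strand: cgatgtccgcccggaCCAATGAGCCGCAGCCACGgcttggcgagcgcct
CRELD2, ERSE, chr22:49918539-49918587, forward strand: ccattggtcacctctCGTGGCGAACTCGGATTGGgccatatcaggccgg
XBP1, ERSE, chr22:28800588-28800636, reverse strand: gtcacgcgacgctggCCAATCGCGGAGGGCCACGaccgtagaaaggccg
HYOU1, ERSE-II, chr11:119057259-119057299, reverse strand: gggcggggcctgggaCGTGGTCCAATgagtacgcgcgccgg
HYOU1, ERSE-II, chr11:119057365-119057405, reverse strand: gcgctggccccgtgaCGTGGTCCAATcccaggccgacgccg
HERPUD1, ERSE-II, chr16:56932010-56932050, forward strand: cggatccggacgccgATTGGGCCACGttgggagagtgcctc
SDF2L1, ERSE-II, chr22:21642099-21642139, forward strand: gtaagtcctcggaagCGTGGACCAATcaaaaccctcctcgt
The HSPA5 element begins 66 bases before the start of the gene and that of XBP1 52 bases before it. A match describes these letters only and is not evidence of binding.

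The libraries held 14299807 to 45994561 counts. TRIM15 was listed at 0 in the 3 EV libraries and at 5.41, 8.45 and 11.4 CPM (counts scaled to a common library size) in the OE-TRIM15 libraries. YY2 fell 3.53-fold with shYY2 and FOXRED1 1.72-fold with shFOXRED1, both past the threshold (edgeR quasi-likelihood test, adjusted p = 1.30e-06 and 4.06e-05). All 8 columnar epithelial markers, such as KRT19, were present in every group, and their sum was 16050 to 16640 CPM with shYY2 against 11420 to 12130 with shControl. The 8 leukocyte markers summed to 5.82 to 19.8 CPM, most of it from ITGAM, and the 6 fibroblast markers to 10.4 to 44.1 CPM, nearly all from COL1A1. The fibroblast sum was 42.4 to 44.1 CPM with shYY2 against 10.4 to 11.1 with shControl, 39.3 to 42.4 with shFOXRED1 against 23.6 to 25, and 22.8 to 26 in HFD against 31.6 to 34.8 in ND xenografts. The leukocyte sum was 6.5 to 7.72 CPM with shYY2 against 10.9 to 12.7, and 9.03 to 9.98 in HFD against 12.1 to 13.1 in ND xenografts. The 4 endothelial markers summed to at most 0.909 CPM and the 4 adipocyte markers to at most 1.34 CPM in every library. The cultures held the OE33 line alone, so these markers do not count other cell types there. For the xenografts, the part of these cell types in the results was not tested. All 37 mitochondrial genes are listed at 0, and whether they were counted is not stated.

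Together the 38 members took 0.831% to 0.855% of all counts in ND and 0.973% to 0.974% in HFD xenografts. Their share was 1.03% in all EV libraries and 1.15% to 1.19% with OE-TRIM15. It was 1.14% to 1.16% in the shControl libraries of the YY2 experiment and 0.713% to 0.72% with shYY2. In the FOXRED1 experiment it was 0.872% to 0.893% with shControl and 0.845% to 0.859% with shFOXRED1. The groups did not overlap in any of the 4 experiments, and the widest gap was that of shYY2. In bulk samples, fewer cells of a type and less RNA per cell cannot be told apart.

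**Figure D1:**
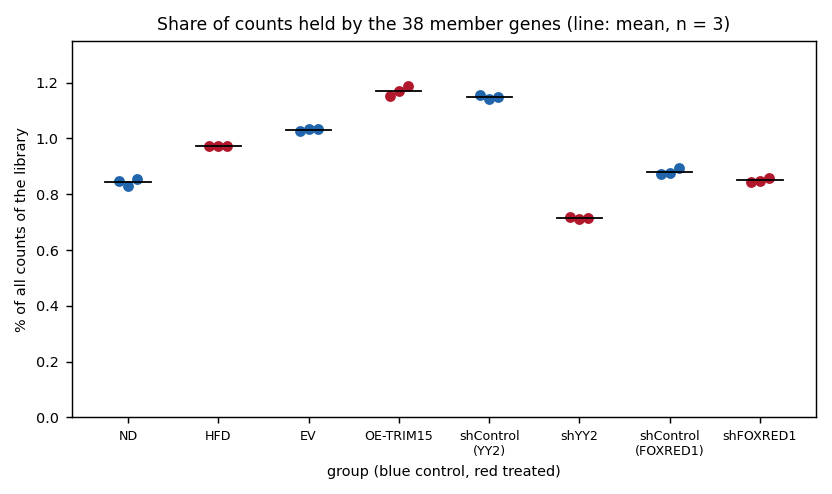
Percent of all counts of a library held by the 38 members (vertical axis) in the 8 groups (horizontal axis), with a point per library and a line at the mean of 3. The shYY2 libraries lie at 0.713% to 0.72%, below their controls at 1.14% to 1.16%, and the OE-TRIM15 and HFD libraries lie above theirs.

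Per kb of gene model, CALR, HSPA5, HSP90B1 and CANX were among the most abundant members. In the shControl cells of the YY2 experiment HSPA5 came first with 408 ± 10.2 CPM per kb (SD, n = 3), ahead of CALR with 369 ± 14.6, HSP90B1 with 354 ± 4.24 and CANX with 271 ± 6.02. CALR and HSP90B1 differed there by about their spread. With shYY2, HSPA5 stood at 90.1 ± 1.43 CPM per kb and was seventh of the 38. DERL2, an ERAD channel subunit, was the lowest member with counts in all 8 groups. DERL3, its relative, is listed at 0 in all 24 libraries, and whether it was counted is not stated. If it was, a count of 0 allows up to 0.0652 to 0.21 CPM, for counting error only. DERL3 was therefore not tested, and the other 37 members passed the filter in all 4 experiments.

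With shYY2, 30 members were lower and 6 were higher than with shControl, and only EDEM3 (log2 fold change 0.057, SE 0.031) did not pass the test. Over all 16006 genes tested, 38.1% were lower and 36.8% higher, 75% in all. The median log2 fold change was -0.57 over the members and -0.0081 over all genes tested. The 2 groups of libraries did not overlap in 37 of 37 members, against 76.3% of all genes. Among the HSP70 and HSP90 chaperones and partners, 10 of 10 were lower, and their median was -1.22.

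HSPA5 encodes BiP, the main HSP70 chaperone of the ER, which also holds the sensors inactive. It was at 359, 349 and 349 CPM with shYY2 and at 1642, 1574 and 1572 CPM with shControl. It was thus 4.53-fold lower (log2 fold change -2.18, SE 0.028, edgeR adjusted p = 2.56e-17), which was the largest change among the members in the 4 experiments. SDF2L1, a partner of BiP and its co-chaperones, was at 11.4, 10.5 and 9.74 CPM against 33.7, 34.7 and 34.3 CPM. It was 3.25-fold lower (log2 fold change -1.70, SE 0.067, edgeR adjusted p = 2.19e-12). DNAJB11, a J-domain co-chaperone of BiP, was at 53.9, 55.1 and 54.3 CPM against 136, 138 and 130 CPM, with a log2 fold change of -1.31 (SE 0.035). HYOU1, a large HSP70 relative that exchanges the nucleotide of BiP, was at 116, 112 and 115 CPM against 286, 281 and 276 CPM, with a log2 fold change of -1.30 (SE 0.03). The secreted proteins MANF and CRELD2 had log2 fold changes of -1.24 (SE 0.053) and -1.19 (SE 0.048). HSP90B1, the HSP90 of the ER, was at 1092, 1070 and 1087 CPM against 1676, 1638 and 1667 CPM, with a smaller log2 fold change of -0.62 (SE 0.024). In each of these genes every shYY2 library lay below every shControl library. DNAJC3, a co-chaperone that also inhibits PERK, was at 44, 53.3 and 50.5 CPM against 76.2, 74.4 and 78.3 CPM, with a log2 fold change of -0.63 (SE 0.054). DNAJB9 and HSPA13 were lower by similar amounts, with log2 fold changes of -0.66 (SE 0.034) and -0.60 (SE 0.047).

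The 6 lectin chaperones and disulfide isomerases were all lower with shYY2, with log2 fold changes from -0.86 to -0.26. CANX, the membrane-bound lectin chaperone that holds newly made glycoproteins, was at 940, 921 and 927 CPM against 1672, 1664 and 1733 CPM (log2 fold change -0.86, SE 0.025, edgeR adjusted p = 7.24e-14). PDIA4, a disulfide isomerase, had a log2 fold change of -0.60 (SE 0.027). CALR, the soluble relative of CANX, was at 612, 607 and 627 CPM against 996, 963 and 1042 CPM (log2 fold change -0.70, SE 0.03). P4HB, a disulfide isomerase that is also a subunit of prolyl hydroxylase, changed least of the 6. Of the 11 ERAD genes tested, 7 were lower and 3 higher. EDEM1, which trims mannoses from misfolded glycoproteins, was at 66.1, 67.6 and 70.3 CPM against 135, 137 and 149 CPM (log2 fold change -1.04, SE 0.042, edgeR adjusted p = 2.36e-12). Its relative EDEM2 was at 69.9, 76.6 and 72.8 CPM against 48.8, 47.5 and 49.7 CPM and rose by 0.59 on the log2 scale (SE 0.042, edgeR adjusted p = 3.68e-09). The 3 EDEM genes thus had 1 call in each direction and 1 without a call. DERL2 was at 15, 14.9 and 15.6 CPM against 27.5, 24.9 and 27.5 CPM (log2 fold change -0.81, SE 0.066), whereas its relative DERL1 had a log2 fold change of -0.12 (SE 0.037). The call of DERL1 was lost without shYY2 replicate 2 (adjusted p = 0.0756). HERPUD1, SYVN1 and SEL1L, which belong to the ligase complex, had log2 fold changes of -0.63, -0.24 and -0.17. The lectins OS9 and ERLEC1, which recognise trimmed glycans, rose by 0.16 and 0.17.

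Among the translocon and membrane genes, SEC61A1, the pore subunit of the translocon, was at 213, 216 and 210 CPM with shYY2 and 418, 420 and 388 CPM with shControl (log2 fold change -0.94, SE 0.034, edgeR adjusted p = 6.86e-13). SEC61B, SSR1 and SSR3, which belong to the translocon and to the complex beside it, were lower too, with log2 fold changes of -0.57, -0.52 and -0.66. WFS1, a membrane protein of the ER that is mutated in Wolfram syndrome, rose by 0.46 (SE 0.049), and SEC24D, a cargo adaptor of COPII vesicles, rose by 0.092 (SE 0.034). The call of SEC24D was lost with DESeq2's Wald test (adjusted p = 0.07) and when any of 4 libraries was left out. Of the sensors and factors, ERN1 was at 47.4, 45.7 and 48.4 CPM against 69.9, 69.5 and 70.1 CPM (log2 fold change -0.57, SE 0.039). XBP1 had a log2 fold change of -0.46 (SE 0.031) and ATF6 of -0.15 (SE 0.034). CREB3L2, a factor of the family of ATF6 that is also freed by cutting, was the exception and rose by 0.56 (SE 0.031).

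**Figure D2:**
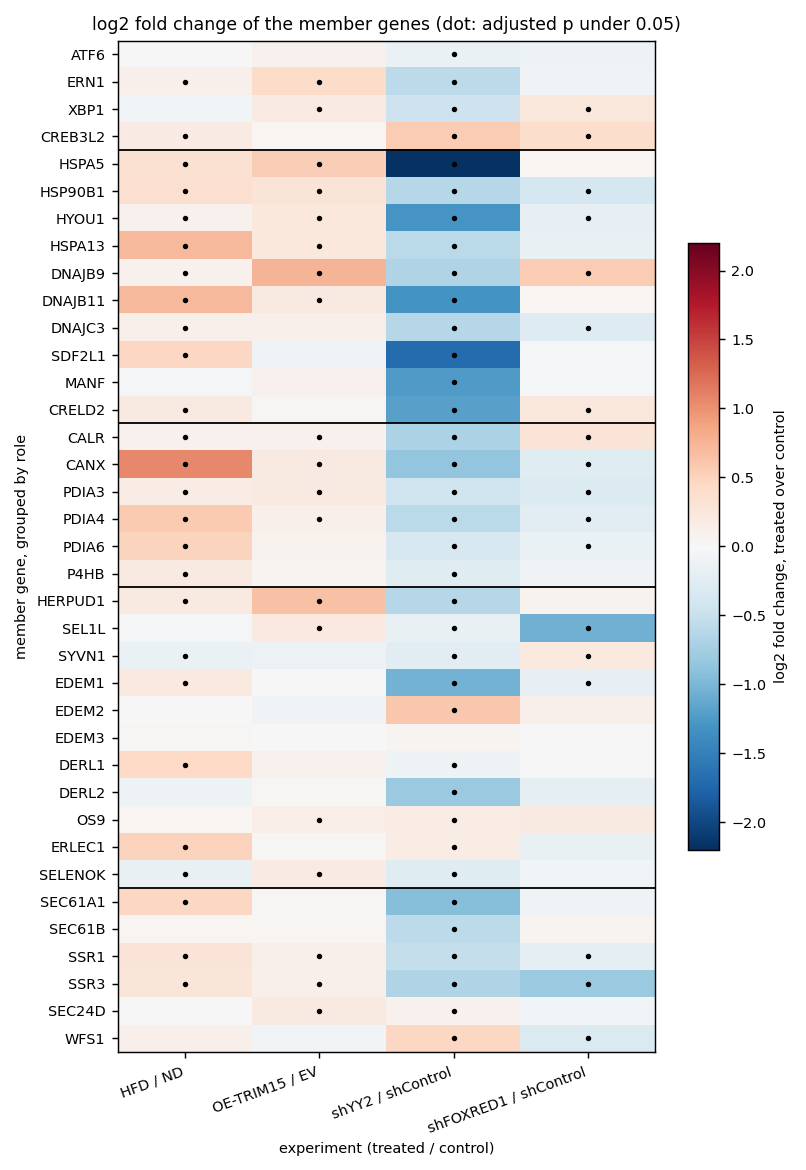
log2 fold change of treated over control (color) for the 37 members tested (rows, grouped by role) in the 4 experiments (columns). A dot marks an edgeR adjusted p under 0.05. The shYY2 column is mostly blue, with HSPA5 at -2.18, and the HFD and OE-TRIM15 columns are mostly red, with CANX at 1.06 in HFD.

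With OE-TRIM15, 19 members were higher and 0 were lower by the edgeR test, against 12.5% higher and 9.53% lower, 22.1% in all, of the 15745 genes tested. Without adjustment, 1 member was lower at p under 0.05, SYVN1, and DESeq2's Wald test called 0 lower. SYVN1, the ubiquitin ligase of ERAD, had a log2 fold change of -0.13 (SE 0.048). The median log2 fold change was 0.11 over the members and -0.0065 over all genes. The groups did not overlap in 24 of 37 members, against 37.7% of all genes. With library totals in place of TMM factors, 14 members were higher and 1 lower, against 1511 and 2214 of all genes (1973 and 1501 with TMM). Counting only changes of at least 1.2-fold, 5 members were higher, against 731 of all 15745 genes tested. When OE-TRIM15 replicate 1 was left out, 23 were higher and 3 lower, against 2594 and 2506 of all genes.

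These 5 were DNAJB9, HERPUD1, HSPA5, ERN1 and HSP90B1. DNAJB9, a co-chaperone of BiP that acts on IRE1, was at 99.2, 107 and 106 CPM with OE-TRIM15 and 61.9, 61.2 and 62.1 CPM with EV. It was 1.68-fold higher (log2 fold change 0.75, SE 0.04, edgeR adjusted p = 8.37e-09). HERPUD1, a membrane protein that helps to assemble the ERAD ligase, was at 127, 131 and 129 CPM against 83.4, 81.7 and 80.5 CPM, 1.57-fold higher (log2 fold change 0.65, SE 0.035, edgeR adjusted p = 8.81e-09). HSPA5 was at 1819, 1814 and 1853 CPM against 1229, 1278 and 1260 CPM, 1.46-fold higher (log2 fold change 0.54, SE 0.026, edgeR adjusted p = 2.85e-09). ERN1 was at 75.9, 75.8 and 71.2 CPM against 55.6, 56.9 and 56.3 CPM (log2 fold change 0.40, SE 0.041). In these genes the groups were well apart, whereas SDF2L1, at 37.6, 32.6 and 26.7 CPM against 33, 35.7 and 36.1 CPM, overlapped. HYOU1 was at 279 CPM in all 3 OE-TRIM15 libraries against 239, 239 and 238 CPM, and rose by 0.23 (SE 0.029). XBP1 rose by 0.18 (SE 0.035), and CREB3L2 (0.051, SE 0.039) and ATF6 (0.10, SE 0.044) did not pass the test. The 4 lectin chaperones and isomerases called, CALR, CANX, PDIA3 and PDIA4, rose by 0.10 to 0.20. The calls of CALR, PDIA4, SSR1, SSR3 and SELENOK were lost for more than 1 choice of library left out (adjusted p up to 0.138). That of OS9 was lost without EV replicate 3 (adjusted p = 0.0665). SELENOK was also not called by DESeq2's Wald test (adjusted p = 0.125). SEL1L, the scaffold of the ERAD ligase, rose by 0.21 (SE 0.032). EDEM1 (0.0059, SE 0.035) and SEC61A1 (0.025, SE 0.03), among the lowest of the members with shYY2, did not pass the test here.

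In HFD xenografts, 24 members were higher and 2 lower than in ND xenografts, against 25.6% higher and 23.9% lower, 49.5% in all, of the 17012 genes tested. This balance depended on the scaling. With library totals in place of TMM factors, 14 members were higher and 8 lower, the median over all genes moved from -0.012 to -0.12, and the calls over all genes went from 4354 higher and 4061 lower to 2800 and 6415. The members' median was 0.16 with TMM and 0.047 with library totals, above that of all genes in both. With a change of at least 1.2-fold, 12 members were higher and 0 lower, against 2699 and 2680 of all 17012 genes tested. The groups did not overlap in 29 of 37 members, against 56.2% of all genes.

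By role, 9 of the 10 HSP70 and HSP90 chaperones and partners were higher with TMM, and 5 higher and 1 lower with library totals. All 6 lectin chaperones and isomerases were higher with TMM and 3 with library totals. Of the 4 sensors and factors, 2 were higher with TMM, and 0 higher and 1 lower with library totals. Of the 11 ERAD genes tested, 4 were higher and 2 lower with TMM, and 3 higher and 5 lower with library totals, so that the balance turned. Of the 6 translocon, export and membrane genes, 3 were higher in both, and 0 and 1 were lower. CANX changed most. It was at 1166, 1193 and 1177 CPM in HFD and at 573, 539 and 579 CPM in ND xenografts, 2.09-fold higher (log2 fold change 1.06, SE 0.035, edgeR adjusted p = 1.28e-12). DNAJB11 was at 103, 102 and 99.6 CPM against 63.7, 60.2 and 60.3 CPM, 1.65-fold higher (log2 fold change 0.72, SE 0.038, edgeR adjusted p = 2.61e-10). HSPA13, an HSP70 of the microsomes, was at 50.3, 55 and 53.4 CPM against 32.3, 32.2 and 32.5 CPM, 1.64-fold higher (log2 fold change 0.71, SE 0.046, edgeR adjusted p = 2.55e-09). These 3 genes were well apart between the diets. HSP90B1 was at 1323, 1400 and 1357 CPM against 1077, 995 and 1101 CPM (log2 fold change 0.36, SE 0.039), and SDF2L1 at 31.8, 35.1 and 29.6 CPM against 25.3, 23.4 and 20.7 CPM (log2 fold change 0.46, SE 0.072). Both were clear of the ND libraries. The isomerases PDIA4 and PDIA6 rose by 0.57 (SE 0.035) and 0.49 (SE 0.035). HSPA5 was at 1160, 1133 and 1128 CPM against 902, 870 and 930 CPM (log2 fold change 0.34, SE 0.034, edgeR adjusted p = 4.00e-07). ERLEC1 rose by 0.50 (SE 0.047), SEC61A1 by 0.46 (SE 0.036) and DERL1 by 0.44 (SE 0.04).
The 2 lower members were ERAD genes, SYVN1 (log2 fold change -0.15, SE 0.034) and SELENOK (-0.16, SE 0.047), a selenoprotein that binds the ERAD channel. XBP1 (-0.064, SE 0.034), ATF6 (0.016, SE 0.042), MANF (-0.029, SE 0.044) and SEL1L (-0.05, SE 0.035) did not pass the test. With library totals, XBP1 (-0.17, adjusted p = 4.69e-04), MANF (-0.14, adjusted p = 0.0145) and SEL1L (-0.16, adjusted p = 9.88e-04) were called lower. The small increases of DNAJB9, HYOU1 and CALR, of 0.10, 0.10 and 0.087, turned to values just below 0 with library totals. The calls of these 3, ERN1, DNAJC3 and CRELD2 were lost for more than 1 choice of library left out (adjusted p up to 0.133). SELENOK lost its call without HFD replicate 3 (adjusted p = 0.0536). DESeq2's Wald test did not call DNAJB9, DNAJC3 and ERN1 (adjusted p = 0.0639, 0.0641 and 0.0591).

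**Figure D3:**
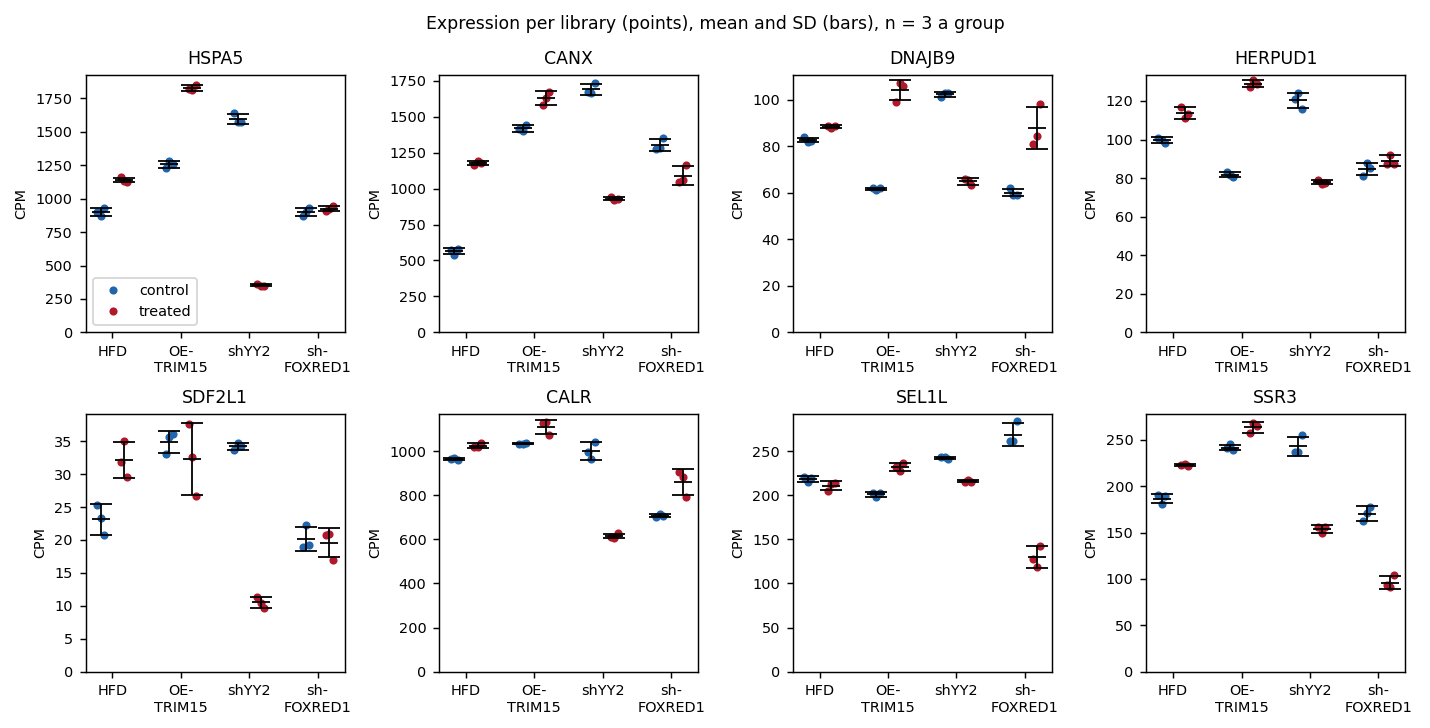
CPM (vertical axes, from 0) of 8 members in the control (blue) and treated (red) libraries of the 4 experiments (horizontal axes), with a point per library and bars for mean and SD (n = 3). HSPA5 lies at 349 to 359 CPM with shYY2 and at 1572 to 1642 with its shControl, and SEL1L lies at 119 to 143 CPM with shFOXRED1 and 261 to 284 with its shControl.

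Both HFD and OE-TRIM15 libraries were higher than their controls in 14 members, and all 14 were lower with shYY2, as were 30 of the 37 members tested. Of all genes tested in these experiments, 6.61% were higher in both and 3.21% were also lower with shYY2. With library totals, 5 members were left, HSPA5, HSP90B1, HSPA13, DNAJB11 and CANX, against 3.75% and 1.79% of all genes. With TMM the 14 were ERN1, HSPA5, HSP90B1, HYOU1, HSPA13, DNAJB9, DNAJB11, CALR, CANX, PDIA3, PDIA4, HERPUD1, SSR1 and SSR3. The 14 are 58.3% of the 24 higher in HFD and 73.7% of the 19 higher with OE-TRIM15. Of the 15540 genes tested in both experiments, 1027 were higher in both. Over all genes tested in each, 4354 were higher in HFD and 1973 with OE-TRIM15. The sizes differed by the test of the difference of effects in 23 of 37 members, against 35.2% of all genes. CANX (difference 0.90, SE 0.046), DNAJB11 (0.57, SE 0.052) and HSPA13 (0.50, SE 0.058) rose more in HFD. DNAJB9 (-0.62, SE 0.051), HERPUD1 (-0.43, SE 0.048) and ERN1 (-0.26, SE 0.055) rose more with OE-TRIM15. SELENOK was called in opposite directions. Of the 23, 15 were above 0 and 8 below with TMM (21.5% and 13.6% of all genes). With library totals, 9 members were above and 12 below, and of all 17160 genes tested 2270 were above and 3825 below. Between OE-TRIM15 and shYY2 the effects differed in 33 members, against 64.4% of all genes, and in 29 of them the OE-TRIM15 effect was the higher one (34.1% of all genes). HSPA5 had the largest of these differences (2.71, SE 0.039). In 17 members OE-TRIM15 was called higher and shYY2 lower, against 5.8% of all genes. With library totals these were 12, without CALR, PDIA4, SSR1, SSR3 and SELENOK, against 4.23% of all genes. In CREB3L2, EDEM2, ERLEC1 and WFS1 the shYY2 effect was the higher one (30.3% of all genes).

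With shFOXRED1, 12 members were lower and 6 higher, against 19.7% lower and 16.8% higher, 36.6% in all, of the 15730 genes tested. The median log2 fold change was -0.069 over the members and 0.012 over all genes. With library totals, 8 members were lower and 7 higher. Over all genes, the calls then went from 3102 lower and 2650 higher to 2476 and 3325. The groups did not overlap in 23 of 37 members, against 46.7% of all genes. With a change of at least 1.2-fold, 6 were lower and 3 higher, against 2438 and 2202 of all 15730 genes tested.

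SEL1L was at 128, 119 and 143 CPM with shFOXRED1 and at 261, 261 and 284 CPM with shControl. It was 2.07-fold lower (log2 fold change -1.05, SE 0.065, edgeR adjusted p = 2.16e-09). SSR3, a subunit of the translocon-associated complex, was at 93.3, 90.9 and 104 CPM against 162, 171 and 178 CPM, 1.77-fold lower (log2 fold change -0.82, SE 0.064, edgeR adjusted p = 2.95e-08). HSP90B1 was at 610, 636 and 664 CPM against 824, 805 and 856 CPM (log2 fold change -0.38, SE 0.047, edgeR adjusted p = 6.51e-06). These groups did not overlap, and other members lay close together. PDIA3, the isomerase that works with CALR and CANX, was at 427, 429 and 432 CPM against 523, 519 and 542 CPM (log2 fold change -0.30, SE 0.045). CANX was at 1048, 1056 and 1166 CPM against 1275, 1284 and 1354 CPM (log2 fold change -0.26, SE 0.048). Neither overlapped its controls. HSPA5 was at 905, 922 and 944 CPM against 873, 898 and 930 CPM (log2 fold change 0.037, SE 0.043, edgeR adjusted p = 0.538), and the libraries of both groups lay in the same range. DNAJB11 (0.038, SE 0.063), SDF2L1 (-0.032, SE 0.11) and MANF (-0.019, SE 0.092) did not pass the test either.
DNAJB9 was at 81.1, 84.5 and 98 CPM against 61.9, 59.1 and 59.2 CPM and rose by 0.55 (SE 0.073, edgeR adjusted p = 1.63e-05). CALR was at 906, 882 and 791 CPM against 703, 714 and 705 CPM, all above the shControl libraries. CREB3L2 rose by 0.38 (SE 0.052), CALR by 0.28 (SE 0.05), XBP1 by 0.25 (SE 0.049), CRELD2 by 0.25 (SE 0.088) and SYVN1 by 0.22 (SE 0.057). The call of CRELD2 was lost when any of 5 of the 6 libraries was left out, and those of PDIA6, EDEM1, SSR1 and HYOU1 when any of 3 or 4 was, with adjusted p of up to 0.165 over these 5 genes. With the replicate number as a block, SEC61A1 (-0.092, adjusted p = 0.0331), ERLEC1 (-0.16, adjusted p = 0.0155), HSPA13 (-0.17, adjusted p = 0.0216) and OS9 (0.18, adjusted p = 0.00184) passed the test, which they did not without it.

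The effects of the 2 knockdowns differed in 31 of 37 members, against 54.4% of all genes, and in 25 of these the shYY2 effect was the lower one (28% of all genes). Both were lower in 11 members, among them HSP90B1, CANX, PDIA4 and SSR3, against 12.7% of all genes, and in 7 with library totals, against 10.2%. XBP1, DNAJB9, CRELD2, CALR and SYVN1 were lower with shYY2 and higher with shFOXRED1 (4.13% of all genes), and WFS1 was higher with shYY2 and lower with shFOXRED1 (5.07% of all genes). In all 6 the difference itself passed the test. The differences were largest for HSPA5 (-2.22, SE 0.051, edgeR adjusted p = 6.18e-18) and SDF2L1 (-1.67, SE 0.13, edgeR adjusted p = 4.93e-10). SEL1L was lower in both, more so with shFOXRED1 (difference 0.88, SE 0.072). SSR3 was lower in both, and the difference of 0.16 (SE 0.074, edgeR adjusted p = 0.0672) did not pass the test.

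**Figure D4:**
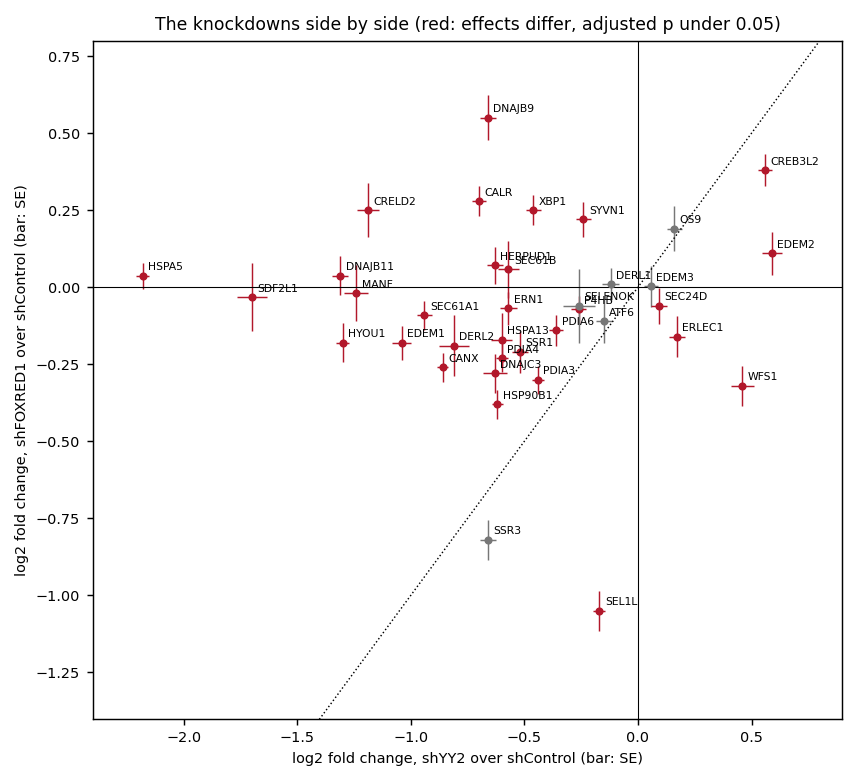
log2 fold change with shYY2 (horizontal axis) against that with shFOXRED1 (vertical axis) for the 37 members tested, with bars of 1 SE and a dotted line where both are equal. Red marks the 31 members whose effects differed (edgeR adjusted p under 0.05). HSPA5 lies at -2.18 and 0.037, and SEL1L at -0.17 and -1.05.

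The 10 members with an ERSE or ERSE-II in the promoter window were all lower with shYY2, and their median was -0.78 on the log2 scale. Of the 24 members with a window and without these elements, 18 were lower and 5 higher, with a median of -0.54. Of all genes tested with shYY2, 38.1% were lower and 36.8% higher. In HFD xenografts 9 of the 10 and 13 of the 24 were higher, against 25.6% of all genes, with medians of 0.27 and 0.11. With library totals, 5 of the 10 were higher and 1 lower, and 8 of the 24 were higher and 6 lower. Of all 17012 genes tested, 2800 were then higher and 6415 lower. With OE-TRIM15, 7 of the 10 and 10 of the 24 were higher, against 12.5% of all genes, with medians of 0.19 and 0.10. With shFOXRED1, 3 of the 10 were higher and 4 lower, and 3 of the 24 were higher and 7 lower, with medians of 0.00 and -0.08. Of all genes tested there, 16.8% were higher and 19.7% lower. The ranges overlapped in each experiment. HSPA5 and SDF2L1, the lowest with shYY2, hold such an element, and DNAJB11 and MANF do not hold one in the windows searched.

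**Figure D5:**
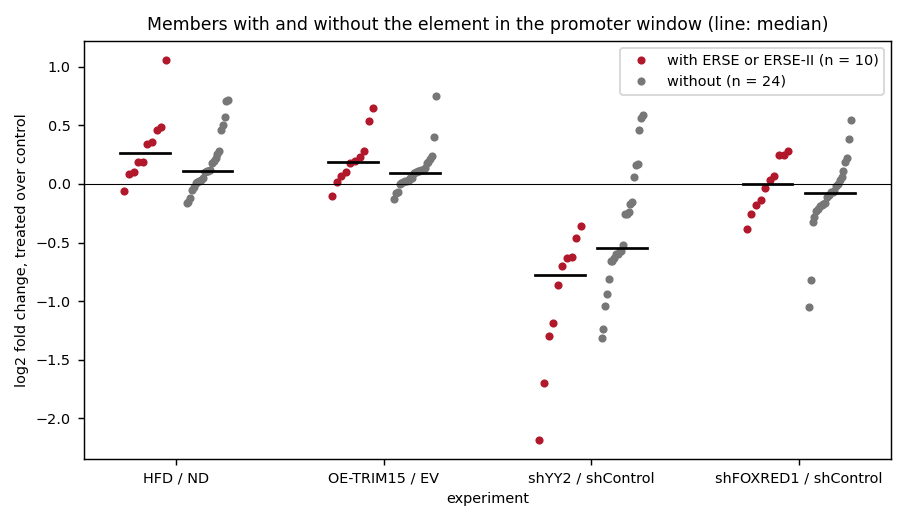
log2 fold change (vertical axis) of the members with (red, 10) and without (grey, 24) an ERSE or ERSE-II in the promoter window, in the 4 experiments (horizontal axis), with a line at the median. With shYY2 the medians lie at -0.78 and -0.54, and the ranges overlap.

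The PERK arm, which signals through ATF4, was followed with 12 genes that are not members. With OE-TRIM15, 8 of the 11 tested were higher, against 12.5% of all genes. PPP1R15A, the phosphatase subunit that restores translation, was at 369, 349 and 331 CPM against 171, 178 and 170 CPM, 2.02-fold higher (log2 fold change 1.02, SE 0.04, edgeR adjusted p = 1.86e-10). DDIT3, which encodes CHOP, rose by 0.62 (SE 0.066) and ATF4 by 0.24 (SE 0.035). With shYY2, 7 were lower and 3 higher, against 38.1% and 36.8% of all genes, and 6 were lower with DESeq2 size factors or library totals. TRIB3, a target of ATF4 and CHOP, had a log2 fold change of -1.27 (SE 0.036), while ATF4 rose by 0.16 (SE 0.03) and PPP1R15B by 0.42 (SE 0.034). In HFD xenografts 4 were higher and 4 lower, against 25.6% and 23.9% of all genes, with CEBPB at 0.58 (SE 0.04) and DDIT3 at -0.25 (SE 0.055). NUPR1 had a log2 fold change of -1.42 there, at 0.109 to 0.838 CPM. With shFOXRED1, 3 were higher and 4 lower, against 16.8% and 19.7% of all genes. EIF2AK3, which encodes PERK, had a log2 fold change of -0.70 (SE 0.096) and DDIT3 rose by 0.35 (SE 0.096).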

How the data were processed

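RNA of OE33 xenografts and cells was sequenced as polyadenylated, 150 bp reads. For each experiment the authors deposited a table of unnormalized counts for every gene. The aligner, counter and annotation are not given in the sources used here. The labels name hg38 and mm10 without a role, and the treatment of mouse reads in the xenografts is not stated. It is also not settled whether strand was used, because the labels name a directional kit and the study's methods do not. Counts of PDIA3 may be shared with its pseudogene PDIA3P1, whose counts are 4.83% of its own.

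Genes were filtered (filterByExpr, minimum count 10 and minimum total count 15), scaled by TMM and tested with edgeR 4.0.16 (quasi-likelihood, R 4.3.3). P-values were adjusted by Benjamini-Hochberg across the genes tested in a fit (threshold 0.05). The SE is the log2 fold change over the square root of F. Differences of effects were tested as interaction terms over 12 libraries. CPM values of single genes use TMM-scaled totals. The marker sums and the DERL3 limit use library totals without TMM. DESeq2 1.42.0 was an alternative. The fits were tested on simulated data. Few genes were given a change to recover, in both directions, so the simulation did not test the choice of scaling. The bar for recovered changes was missed over all genes in 3 of the 7 designs, and was then set on genes with a mean of at least 100 counts, where all designs met it. Members, lists and tests were chosen with earlier results of these data known. All 38 members could be named, as could the changed genes, the PERK list and the largest change in each direction per companion list. Replicate numbers were checked for pairing by the correlation of deviations from group means. Over all genes tested no experiment had all 3 above 0.1. Over genes with a mean of at least 100 counts, shFOXRED1 had 0.187, 0.12 and 0.36, and its block values are given where they change a call. No replicate pair agreed within sampling noise. Total counts of 14299807 to 45994561 limit the precision.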

Additional observations from a re-analysis of the deposited data

Results flagged for a closer look

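The shYY2 and shFOXRED1 effects differed by an interaction test across all genes (edgeR adjusted p under 0.05) in 31 members, and the values below are the shYY2 effect minus the shFOXRED1 effect on the log2 scale. Among the sensors and factors they were ERN1 (-0.50), XBP1 (-0.72) and CREB3L2 (0.18). Among the HSP70 and HSP90 chaperones and partners they were HSPA5 (-2.22), HSP90B1 (-0.24), HYOU1 (-1.11), HSPA13 (-0.43), DNAJB9 (-1.20), DNAJB11 (-1.35), DNAJC3 (-0.35), SDF2L1 (-1.67), MANF (-1.22) and CRELD2 (-1.45). Among the lectin chaperones and isomerases they were CALR (-0.98), CANX (-0.60), PDIA3 (-0.15), PDIA4 (-0.38), PDIA6 (-0.22) and P4HB (-0.19). Among the ERAD genes they were HERPUD1 (-0.70), SEL1L (0.88), SYVN1 (-0.47), EDEM1 (-0.86), EDEM2 (0.47), DERL2 (-0.62) and ERLEC1 (0.34). Among the translocon, export and membrane genes they were SEC61A1 (-0.85), SEC61B (-0.63), SSR1 (-0.32), SEC24D (0.15) and WFS1 (0.77). The knockdowns were separate experiments with their own shControl libraries, so the experiment and the shRNA cannot be told apart. No test for single outlying libraries was run on groups of 3. The mean chi-square per gene between 2 replicates was highest with shFOXRED1 replicate 3, at 7.94 and 6.9 against 2.16 for the other pair. OE-TRIM15 replicate 1 had 3.43 and 4.78 against 1.99, and ND replicate 2 had 4.22 and 4.98 against 2.36. Without shFOXRED1 replicate 3, 3215 genes were higher and 3638 lower (2650 and 3102 with it). Without OE-TRIM15 replicate 1 they were 2594 and 2506 (1973 and 1501), and without ND replicate 2, 4244 and 3668 (4354 and 4061).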

How the results depend on the processing

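The members' counts with shYY2 and the 3 counts of differing effects stayed within 1.5 times their value under DESeq2's size factors, DESeq2's Wald test, both other filters, library totals, the replicate block and each library left out. With a change of at least 1.2-fold, the counts were 12 higher and 0 lower in HFD, 5 higher with OE-TRIM15, 3 higher with shYY2, and 3 higher and 6 lower with shFOXRED1. Over all genes tested they were 2699 and 2680 in HFD, 731 with OE-TRIM15, 4973 with shYY2, and 2202 and 2438 with shFOXRED1. With library totals, HFD gave 14 higher and 8 lower with a median of 0.047, OE-TRIM15 gave 1 lower, and the shFOXRED1 median was -0.012. Over all genes, library totals moved the calls from 1973 higher and 1501 lower to 1511 and 2214 with OE-TRIM15, and from 2650 and 3102 to 3325 and 2476 with shFOXRED1. Without a filter on low counts, 1 member was lower in HFD and 1 with OE-TRIM15.

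Leaving out each library in turn, 19 to 24 members were higher and 1 to 2 lower in HFD, 13 to 23 higher and 0 to 3 lower with OE-TRIM15, 5 to 6 higher and 29 to 30 lower with shYY2, and 5 to 8 higher and 8 to 15 lower with shFOXRED1. The 1 lower in HFD came without HFD replicate 3 and the 3 lower without OE-TRIM15 replicate 1. The medians were 0.15 to 0.17, 0.10 to 0.13, -0.58 to -0.56 and -0.084 to -0.064.

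With the replicate block, 25 and 2 were called in HFD (WFS1 added, adjusted p = 0.0426), 19 and 1 with OE-TRIM15 (SYVN1, adjusted p = 0.032), 6 and 30 with shYY2, and 7 and 15 with shFOXRED1. No called gene named in the text lost its call with the block.

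Signs turned, with library totals, for DNAJB9 (-0.011), HYOU1 (-0.0071), CALR (-0.023) and ATF6 (-0.094) in HFD, CRELD2 (-0.012), EDEM1 (-0.024) and SEC61A1 (-0.0051) with OE-TRIM15, and SDF2L1 (0.025) and MANF (0.037) with shFOXRED1. EDEM1 with OE-TRIM15 also turned without a filter on low counts (-0.0069). With a library left out, signs turned for ATF6 in HFD (-0.023 to 0.042), for SDF2L1 (-0.24 to 0.014), CRELD2 (-0.043 to 0.049) and EDEM1 (-0.011 to 0.032) with OE-TRIM15, and for DNAJB11 (-0.0067 to 0.069), SDF2L1 (-0.081 to 0.053) and MANF (-0.057 to 0.03) with shFOXRED1. Only DNAJB9, HYOU1 and CALR of these had passed the test. The cause was not tested.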

Other observations

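Other genes of the secretory pathway that are not members were counted with shYY2 too, where 75% of all genes tested were called, 38.1% lower and 36.8% higher. The share called was 75% in the first list below, 73.9% among the oxidative folding and proline isomerase genes and 73.3% among the oligosaccharyltransferase and glucosidase genes, close to that of all genes. It was 94.1% among the other ERAD genes and 100% among the COPII coat genes. Of 20 other translocon and signal peptidase genes, 15 were lower and 0 higher by edgeR (2 higher with DESeq2 size factors), and SRPRB, a subunit of the receptor of the signal recognition particle, fell from 62.1 to 15 CPM on average (log2 fold change -2.05, SE 0.052). Of the 18 COPII coat genes tested, 10 were lower and 8 higher, with SEC23B at -1.84 (SE 0.034) and SEC31B at 0.93 (SE 0.084). Of 23 other oxidative folding and proline isomerase genes tested, 13 were lower and 4 higher, with the co-chaperone and reductase DNAJC10 at -1.46 (SE 0.034) and the oxidase ERO1B at 1.19 (SE 0.075). Of 17 other ERAD genes tested, 13 were lower and 3 higher, and of 15 oligosaccharyltransferase and glucosidase genes, 9 were lower and 2 higher, with UGGT1 at -0.95 (SE 0.031).

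In HFD xenografts, where 25.6% of all genes were higher and 23.9% lower, 12 of the 23 oxidative folding and isomerase genes were higher and 2 lower (9 and 5 with library totals), with ERO1A, an oxidase of this pathway, at 619 against 393 CPM on average (log2 fold change 0.66, SE 0.035). With shFOXRED1, where 19.7% of all genes were lower and 16.8% higher, 7 of the 15 oligosaccharyltransferase and glucosidase genes were lower and 1 higher (4 and 1 with library totals), with RPN2 at -0.54 (SE 0.046).

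The controls of the 4 experiments, which were normalized separately, stood at different levels. SEL1L averaged 28.1 CPM per kb with the shControl of the FOXRED1 experiment and 25.4 with that of the YY2 experiment, and HSPA5 averaged 230 and 408.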
